A study of Mus musculus with 4 samples.

Results

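The tight junction genes of the blood-brain barrier are described here in brain endothelial RNA-Seq. The set holds 9 genes, taken by symbol from the 24873 genes of the deposited table: Cldn5, Ocln, Marveld2, Lsr, Esam, Jam2, F11r, Tjp1 and Cgnl1. All mice had the genotype Cdh5cre;Mgpflox/flox. The VE-cadherin (Cdh5) promoter drives a recombinase that tamoxifen activates, and the recombinase then removes the floxed part of Mgp, the gene of matrix Gla protein, an inhibitor of bone morphogenetic protein. Injections of tamoxifen (75 mg/kg each day, over 5 days) began in the treated mice at an age of 10 weeks, and cells were isolated on day 9. The control group carried the same alleles and received no tamoxifen, so that deletion of Mgp and exposure to the drug cannot be told apart. The study describes the cells as CD31+CD45-, whereas the sample labels give tdTomato+ brain cells. Each group had 2 libraries, and each library was pooled from 3 mice, so that the spread behind a p-value is between pools and not single mice. The limma test used below also draws each gene's variance toward a trend over all genes tested. The comparison asks how the junction genes stood in the brain endothelial fraction after tamoxifen, in a mouse model of cerebral arteriovenous malformation.

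Tight junctions seal the cleft between neighboring cells. In brain capillaries they are the part of the blood-brain barrier that stops molecules from slipping between endothelial cells. Their strands are built from claudins, membrane proteins of which claudin 5 is the main one in brain endothelium. Occludin and tricellulin belong to the related MARVEL family, and angulins recruit tricellulin to corners where 3 cells meet. Adhesion molecules with immunoglobulin domains lie beside the strands, and scaffold proteins such as ZO-1 and the cingulin family tie them to the actin cytoskeleton.

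Between 35387438 and 49799321 reads on genes were recovered per library, and 3 reads corresponded to 2.16 to 4.11 normalized counts. All values below are normalized counts unless a log2 scale is named. Mgp itself, counted over all its exons together, was at 1094 and 1352 in the control libraries and at 945 and 909 in the tamoxifen libraries, a log2 change of -0.39 (SE 0.18, adjusted p = 0.0986) that did not pass the test. Pecam1, the gene of the sort marker CD31, was at 83681 and 88796 in the control libraries against 15987 and 8973 in the tamoxifen libraries. All 20 genes of an endothelial marker list were lower in the tamoxifen group by the test, with a median log2 change of -2.94. Other lists moved the opposite way. Ptprc, which encodes CD45 and should be absent from CD45- cells, was at 50.7 and 83.9 against 1423 and 1119. All 7 neutrophil markers were higher, with sums of 232 to 297 in the control group and 81197 to 108979 in the tamoxifen group. All 10 pluripotency markers (sums of 108 to 170 against 45222 to 58195) and all 5 erythroid markers (17381 to 35081 against 101581 to 158663) were higher as well. These lists rose while the members fell, and their part in the results below was not tested.

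All 9 tight junction genes were lower in the tamoxifen group. Their levels were 11.8% (Ocln) to 29.3% (Jam2) of the control mean, and their median log2 change was -2.41, against 0.05 over all 20485 genes tested. A gene was called when limma gave an adjusted p under 0.05 and a log2 change over 1 in size, and by that rule 9 of 9 members were called lower, compared with 16% of all genes tested. The groups did not overlap for any of the 9 members, with each tamoxifen library below each control library, as they did for 39.2% of all genes tested. The 9 calls stayed under each of 14 other settings, including those that left out any 1 library. In bulk RNA, fewer endothelial cells in the sort and less junction RNA in each cell cannot be told apart.

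**Figure D1:**
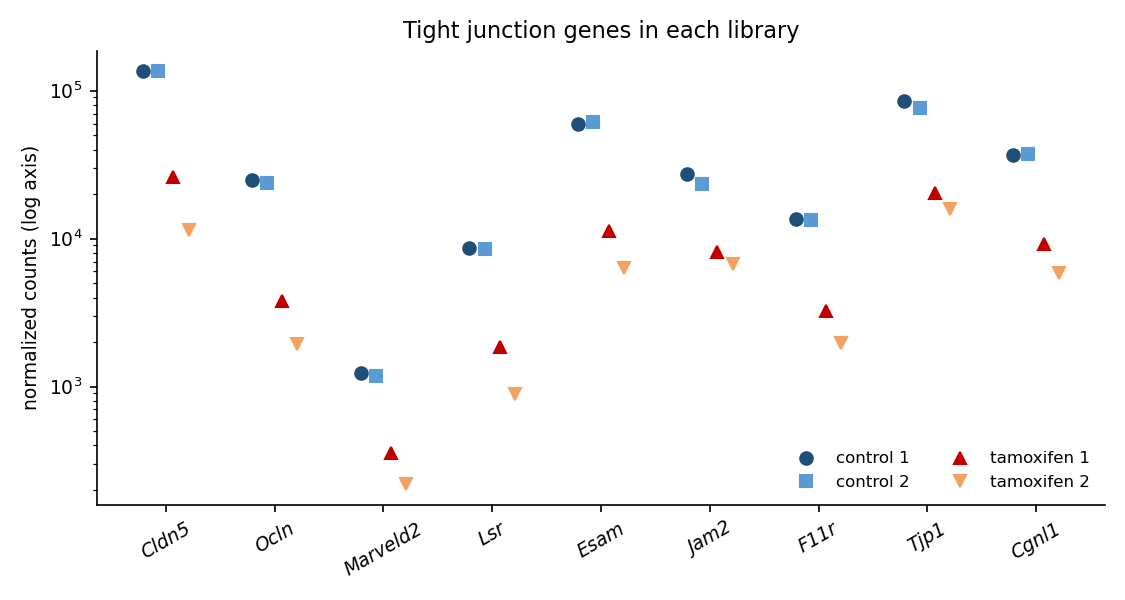
Normalized counts (log axis) of the 9 tight junction genes in each of the 4 libraries, with a symbol for each library. For every gene the 2 control libraries lie close together and the 2 tamoxifen libraries lie below them, with tamoxifen 2 the lowest, where values run from 15816 for Tjp1 to 219 for Marveld2.

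Genomic positions are those of GENCODE M39 on GRCm39. Cldn5 (chr16:18595597-18597012, plus strand) and Jam2 (chr16:84570764-84623269, plus) share chromosome 16. Ocln (chr13:100630334-100689535, minus) and Marveld2 (chr13:100732464-100753489, minus) are neighbors on chromosome 13, 42.9 kb apart with 0 protein-coding genes between them. Tjp1 (chr7:64945898-65177529, minus) and Lsr (chr7:30657195-30673340, minus) lie on chromosome 7, Esam (chr9:37439344-37449615, plus) and Cgnl1 (chr9:71533791-71678884, minus) on chromosome 9, and F11r (chr1:171265092-171292958, plus) on chromosome 1. The sequence upstream of the members' RefSeq start sites was searched on both strands from 250 to 51 bases before the start. Entries were found for 7 of the 9 members, all but Esam and Jam2. The CAGGTG form of the E-box (CACCTG on the other strand), which snail family repressors bind, occurred in 3 of the 9 windows of these 7 members, with 2 matches for Ocln, 1 for F11r and 4 for Lsr. It is present in 14.4% of 32851 such windows, a share that was not matched for G and C content. Ocln and Marveld2 have 2 windows each, and those of Marveld2 overlap, so that the windows are not separate sequences. The matched windows of Ocln and Lsr hold protein-coding exons, and their G and C content was 68.5% and 62.5%. The ETS core CCGGAA (8.03% of windows) was found in 1 window, of Ocln, and the forkhead letters GTAAACA (2.58%) and the SOX letters AACAAT (7.96%) for none. The forkhead and SOX letters share the run AACA, and a match is a string of bases and not a measured binding site. The 4 windows free of protein-coding exons are printed 5′ to 3′ on the gene's strand, as examples of a claudin, an adhesion molecule and both scaffolds, with the E-box in capitals. The windows are chr16:18595347-18595546 for Cldn5, chr1:171264879-171265078 for F11r, chr9:71678935-71679134 for Cgnl1 and, inside the annotated span of the gene, chr7:65021043-65021242 for Tjp1.
Cldn5: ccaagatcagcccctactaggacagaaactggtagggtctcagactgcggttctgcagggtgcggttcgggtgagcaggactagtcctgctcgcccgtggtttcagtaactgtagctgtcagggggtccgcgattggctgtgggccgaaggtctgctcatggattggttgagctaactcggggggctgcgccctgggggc
F11r: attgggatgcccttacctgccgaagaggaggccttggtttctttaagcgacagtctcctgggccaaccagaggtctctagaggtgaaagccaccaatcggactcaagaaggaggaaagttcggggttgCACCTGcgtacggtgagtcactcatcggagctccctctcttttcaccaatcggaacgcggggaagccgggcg
Tjp1: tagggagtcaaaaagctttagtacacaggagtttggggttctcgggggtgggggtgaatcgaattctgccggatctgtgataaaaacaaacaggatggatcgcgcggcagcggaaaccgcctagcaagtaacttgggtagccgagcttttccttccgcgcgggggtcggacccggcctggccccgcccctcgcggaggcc
Cgnl1: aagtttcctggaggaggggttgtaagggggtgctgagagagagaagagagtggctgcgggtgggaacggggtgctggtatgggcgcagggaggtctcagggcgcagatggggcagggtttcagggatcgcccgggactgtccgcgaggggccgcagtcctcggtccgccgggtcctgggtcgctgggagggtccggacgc
Their G and C content was 61.5% for Cldn5, 57% for F11r, 60% for Tjp1 and 68.5% for Cgnl1, above the median of 51.5% over all windows. The E-box of F11r begins 122 bases before the start site.

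Cldn5, the claudin that forms most of the endothelial strand, was at 135060 and 134934 in the control libraries and at 26217 and 11392 in the tamoxifen libraries. Control values were nearly equal, whereas the tamoxifen libraries differed 2.3-fold from each other. The log2 change was -2.97 (SE 0.40, 95% CI -3.89 to -2.04, adjusted p = 0.000501), which left 13.9% of the control mean. Its SE was the largest of the 9 members. The change was also the most dependent on the setting, with -3.57 when tamoxifen 1 was left out and -1.92 after quantile normalization.

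Ocln encodes occludin, a MARVEL protein that lines the strands and regulates their leakiness. It fell from 24928 and 23805 to 3806 and 1930, a log2 change of -3.17 (SE 0.30, 95% CI -3.85 to -2.48, adjusted p = 0.000103). This was the largest fall among the members, to 11.8% of the control mean, under all settings but quantile normalization, where Marveld2 fell most (-2.80). Its neighbor Marveld2 encodes tricellulin, which seals the corners between 3 cells. Marveld2 was at 1238 and 1178 against 355 and 219, a log2 change of -2.11 (SE 0.27, 95% CI -2.73 to -1.49, adjusted p = 0.000363). The 95% intervals of these neighbors overlapped. Lsr, or angulin 1, is the receptor that brings tricellulin to those corners. Its levels were 8580 and 8538 in the control group and 1842 and 890 in the tamoxifen group, a log2 change of -2.74 (SE 0.30, 95% CI -3.45 to -2.03, adjusted p = 0.000207). All 3 genes were thus lower with no overlap between groups, and the pools of the tamoxifen group differed from each other 1.97-fold for Ocln, 1.62-fold for Marveld2 and 2.07-fold for Lsr. The exons of Lsr share 946 bases, 33% of their length, with Gm4673 on the opposite strand. The kit was stranded, but the strand setting of the counting is not given in the sources used here, so that in the shared stretch reads of Lsr and of Gm4673 cannot be told apart. Gm4673 was at 3063 and 2519 against 529 and 385.

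Among the adhesion molecules with immunoglobulin domains, Esam, the adhesion molecule of endothelial cells and platelets, was at 59530 and 61624 in the control libraries and at 11212 and 6310 in the tamoxifen libraries. Its log2 change was -2.85 (SE 0.29, 95% CI -3.52 to -2.18, adjusted p = 0.000142). F11r encodes JAM-A, which recruits polarity proteins to young junctions. F11r was at 13486 and 13323 against 3236 and 1973, a log2 change of -2.41 (SE 0.24, 95% CI -2.95 to -1.86, adjusted p = 0.000123). Jam2 encodes JAM-B, a partner of JAM-C in contacts between endothelial cells and leukocytes. Jam2 was at 27159 and 23537 against 8143 and 6731, the smallest fall of the 9 members under every setting, with a log2 change of -1.77 (SE 0.19, 95% CI -2.22 to -1.32, adjusted p = 0.000189). All 3 adhesion genes fell, and the intervals of Esam and Jam2 overlapped only between -2.22 and -2.18. The exons of Jam2 share 485 bases, 4.38% of their length, with Atp5pf on the opposite strand, which was at 4897 and 5620 against 3457 and 3369 and was not called. For F11r, 178 bases (5.14%) are shared with Gm26641, which was at 45.1 or less in every library.

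Both scaffold members fell. Tjp1 encodes ZO-1, the PDZ protein that ties claudins to actin. It was at 85137 and 76205 in the control libraries and at 20219 and 15816 in the tamoxifen libraries, a log2 change of -2.17 (SE 0.25, 95% CI -2.76 to -1.58, adjusted p = 0.000252). Cgnl1 encodes paracingulin, which links junctions to actin and to microtubules. Cgnl1 was at 36970 and 37046 against 9221 and 5861, a log2 change of -2.33 (SE 0.25, 95% CI -2.90 to -1.76, adjusted p = 0.000165). After quantile normalization, which shifted the median of all genes by -0.28, the changes were -1.23 for Tjp1 and -1.66 for Cgnl1.

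**Figure D2:**
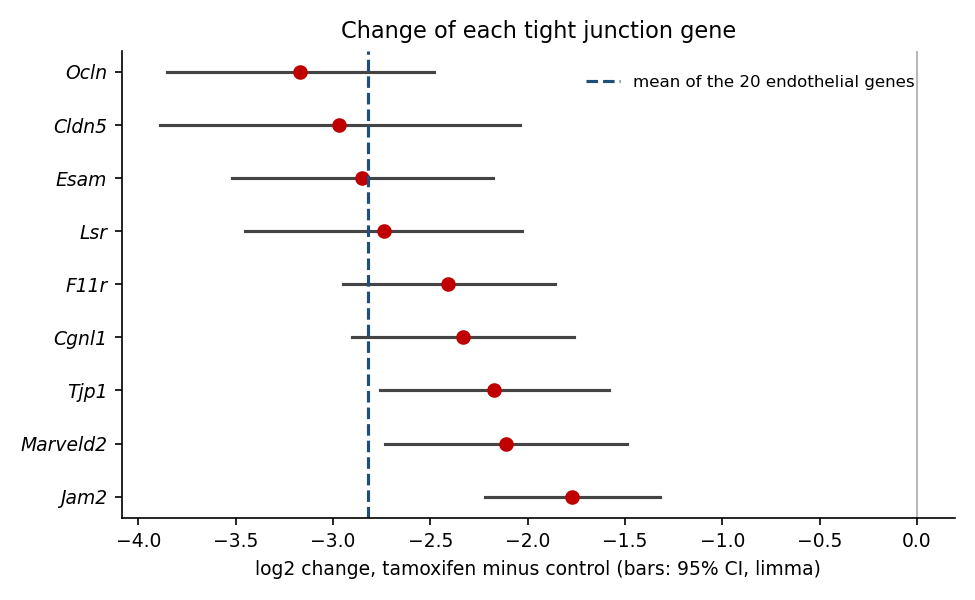
Log2 change (tamoxifen minus control) of each tight junction gene on the horizontal axis, with its 95% confidence interval from limma over 2 libraries a group. The dashed line marks the change of the mean of 20 endothelial marker genes, -2.82, and every interval lies to the left of 0, from -3.17 for Ocln at the top to -1.77 for Jam2 at the bottom.

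Per kilobase of merged exon, the control levels spanned from 95337 normalized counts per kb for Cldn5 to 356 for Marveld2. Cldn5 was followed by Esam at 19894, Tjp1 at 10179, Cgnl1 at 4636, F11r at 3873, Lsr at 2983, Ocln at 2596 and Jam2 at 2291. Cldn5, Esam and Tjp1 thus led the order, while occludin and the genes of tricellular corners came in its lower part. The adhesion molecules were spread over the order, from Esam near its top to Jam2 near its end. Neighbors in this order did not overlap between the control libraries, and when the length of the longest transcript was used Jam2 moved from the eighth place to the fifth, at 4684. In the tamoxifen libraries Cldn5 was still the highest, at 18515 and 8045 normalized counts per kb, and Marveld2 the lowest, at 105 and 64.6. Between them several neighbors no longer differed beyond the spread of the group, in which tamoxifen 2 was the lower library for all members. Esam (2072 to 3682) overlapped Tjp1 (1996 to 2551), Cgnl1 (734 to 1155) overlapped F11r (570 to 935), and Lsr (310 to 642) overlapped both Jam2 (608 to 736) and Ocln (206 to 406). Each of these pairs had the same order in both tamoxifen libraries. Jam2 was above Lsr and Ocln there, whereas by merged exon length it was below both in each control library. Between the tamoxifen libraries F11r and Jam2 alone changed places, with F11r above Jam2 in tamoxifen 1 (935 and 736) and below it in tamoxifen 2 (570 and 608).

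The tamoxifen libraries differed from each other in the same direction for all 9 members. Tamoxifen 2 was below tamoxifen 1 by 1.21-fold for Jam2 to 2.3-fold for Cldn5, with a median of 1.64-fold. Of the 20 endothelial markers, 19 were also lower in tamoxifen 2, with a median of 2.02-fold, compared with 58% of all genes tested and a median of 1.06-fold. In the control group, control 2 was between 0.867 and 1.04 times control 1 for the members. The summed level of 8 choroid plexus and ependymal markers was 17853 in tamoxifen 1 and 53702 in tamoxifen 2, and that of 6 astrocyte markers was 134790 and 285980. Their part in the difference between the pools was not tested.

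To set the members against the endothelial RNA of each library, the mean log2 level of the 20 endothelial markers was subtracted. That mean was 15.32 and 15.37 in the control libraries against 12.96 and 12.08 in the tamoxifen libraries. The list was written with earlier results of these data known and includes genes that the study had singled out in the same libraries, so that its fall is not independent evidence. Against this reference 1 of 9 members, Jam2, was called higher, compared with 86.6% of all genes tested. None of the 9 was called lower, compared with 0.132% of all genes tested, and the number was also 0 at an unadjusted p under 0.05 in limma and with edgeR and DESeq2 on recovered reads. Jam2 stood at -0.59 and -0.84 (log2, gene minus list) in the control libraries and at 0.03 and 0.63 in the tamoxifen libraries. The groups did not overlap, and the difference was 1.05 (SE 0.41, 95% CI 0.25 to 1.85, adjusted p = 0.0125). The call was lost under 6 of 16 settings, among them leaving out control 1 (1.18, adjusted p = 0.244), control 2 (0.93, adjusted p = 0.366) or tamoxifen 2 (0.75, a size under the limit). Over all settings its adjusted p ran from 0.000592 to 0.366.

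The remaining 8 members did not differ from the endothelial list by the test, with intervals that were wide. In this fit eBayes draws each gene's variance toward a trend over all genes tested. The SE of Esam was thus 0.39 although its values in the 4 libraries lay close together. Small differences could therefore not be decided by this test. Esam was at 0.54 and 0.55 in the control libraries and at 0.50 and 0.54 in the tamoxifen libraries, a difference of -0.02 (95% CI -0.78 to 0.74). Cldn5 was at 1.72 and 1.68 against 1.72 and 1.39, a difference of -0.14 (95% CI -0.84 to 0.56). Lsr was at -2.26 and -2.31 against -2.11 and -2.28, a difference of 0.08 (95% CI -0.86 to 1.03). Esam and Lsr kept nearly the same distance from the list in all 4 libraries, and Cldn5 did so in all but tamoxifen 2, where it was lower. Ocln was lower in both tamoxifen libraries (-1.06 and -1.17) than in the control libraries (-0.72 and -0.83), a difference of -0.34 (95% CI -1.19 to 0.51). The other 4 were higher in both tamoxifen libraries. The difference was 0.42 for F11r (95% CI -0.47 to 1.30, adjusted p = 0.374) and 0.49 for Cgnl1 (-0.29 to 1.28, adjusted p = 0.236). It was 0.65 for Tjp1 (-0.07 to 1.37, adjusted p = 0.0841) and 0.72 for Marveld2 (-0.48 to 1.92, adjusted p = 0.26). In this order the differences were 0.50, 0.60, 0.91 and 0.81 without tamoxifen 1. Without tamoxifen 2 they were 0.34, 0.38, 0.39 and 0.63. The share of all genes tested that was higher in both tamoxifen libraries on this scale was not determined. The sign of the difference turned for Cldn5, Esam, Lsr and Marveld2 under quantile normalization.

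**Figure D3:**
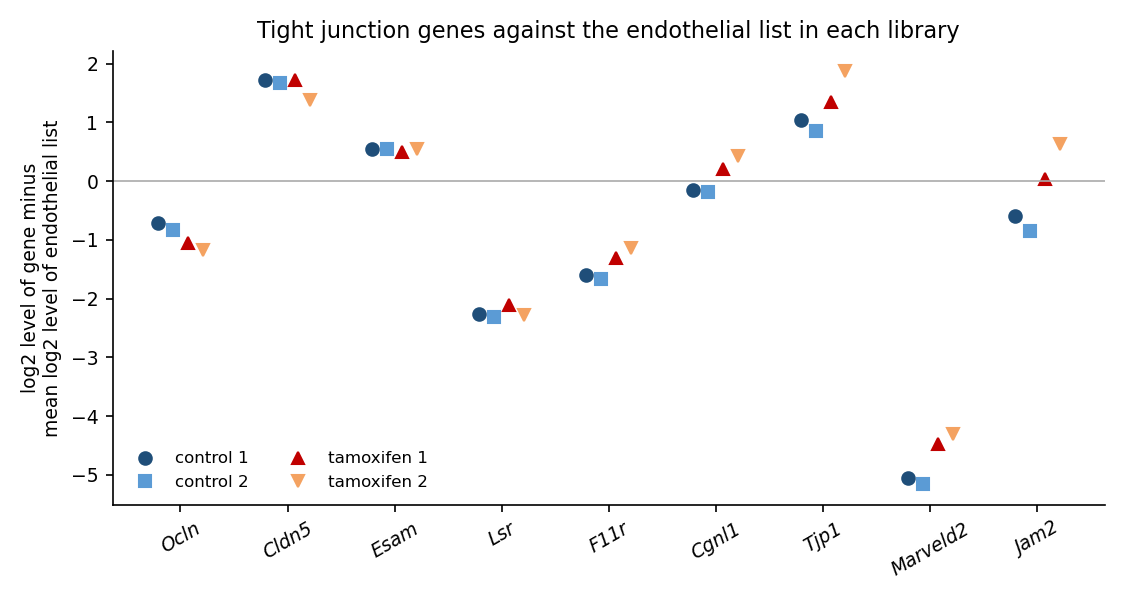
Log2 level of each tight junction gene minus the mean log2 level of 20 endothelial markers in the same library, with a symbol for each library and genes ordered by the difference between groups. Esam stays between 0.50 and 0.55 in all 4 libraries, Ocln is lower in the tamoxifen libraries, and Jam2 at the right runs from -0.84 to 0.63 between its lowest and highest library.

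The genes whose profile over the 4 libraries lay nearest to that of each member were sought among 7780 genes with a mean of at least 1000, by the root mean square distance between centered log2 levels. For Esam the nearest gene was Pecam1, at a distance of 0.013, followed by Slc22a8 and Nod1. For Ocln it was Tek (0.044), for Cldn5 She (0.035), for F11r Cav1 (0.023), for Lsr Slco2b1 (0.021), for Cgnl1 Abcc4 (0.021), for Marveld2 Niban1 (0.018), for Tjp1 Tmcc3 (0.038) and for Jam2 Lrrc8c (0.026). With 4 libraries in 2 groups, this measure mainly ranks genes by the size of the change between groups and by the gap between the tamoxifen libraries.

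A further 51 tight junction genes were listed by role, of which 44 were in the table and 41 passed the filter on low values, while 7 were not analysed here. Of these 41, 9 were called lower and 18 higher, that is 22% and 43.9%, compared with 16% and 28.6% of all genes tested. Their median log2 change was 0.99. When tamoxifen 1 was left out 6 were called higher, and 5 when tamoxifen 2 was left out. After rescaling to equal totals, which shifted the median of all genes by 0.47, 4 were called lower.

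The claudins other than Cldn5 were mostly higher in the tamoxifen libraries, and apart from Cldn12 they were at 149 or less in the control libraries. Of 14 claudins tested, 10 were called higher and 1 lower, with a median log2 change of 2.20. That is 71.4% and 7.14%, compared with 28.6% and 16% of all genes tested. Cldn4, a claudin of epithelia, was at 2.74 and 10 in the control libraries and at 371 and 241 in the tamoxifen libraries (log2 change 5.55, adjusted p = 0.000264). Cldn10, which forms ion pores, was at 103 and 149 against 1055 and 2098 (3.58, adjusted p = 0.000139). Cldn13, a claudin of rodents, was at 0 and 3.75, or 3 reads in all, against 922 and 673 (adjusted p = 9.37e-05). The call of Cldn4 was lost when tamoxifen 1 (5.24, adjusted p = 0.0593) or tamoxifen 2 (5.86, adjusted p = 0.0579) was left out, and that of Cldn13 without tamoxifen 2 (adjusted p = 0.0524), while the log2 changes stayed about as large. Cldn12, the claudin with the highest counts after Cldn5 in the control libraries, was at 1272 and 1075 against 1379 and 1352. It did not pass the test (0.22, adjusted p = 0.287). The 1 claudin called lower was Cldn9, at 46.6 and 90.1 against 23.8 and 14.4. Cldn14 and Cldn18 were not tested, with 0 reads in both control libraries and at most 17.3 normalized counts in the tamoxifen libraries. Most epithelial markers were higher as well. Of 13 in the list 10 were called higher, with sums of 836 to 1687 in the control group and 9496 to 12428 in the tamoxifen group. Cdh1, the epithelial cadherin, was the largest part of the tamoxifen sums, at 41.1 and 58.8 against 6746 and 4447. Krt19 was at or under 3 reads in both control libraries. The 3 not called were Esrp1 (0.27), Esrp2 (0.28) and Rab25, which was lower (23.3 and 57.6 against 11.9 and 12.2, log2 change -1.53). Of 8 choroid plexus and ependymal markers 7 were called higher, with sums of 1200 to 3852 against 17853 to 53702. The part of such cells in the claudin values was not tested.

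More scaffold genes fell than rose. Of 12 tested, 5 were called lower and 2 higher, with a median log2 change of -0.85. That is 41.7% and 16.7%, compared with 16% and 28.6% of all genes tested. Afdn, or afadin, which links nectins to actin, was at 26281 and 21308 in the control libraries and at 11420 and 9439 in the tamoxifen libraries (log2 change -1.19, adjusted p = 0.00177). Its call was lost after rescaling to equal totals (-0.72), after quantile normalization (-0.52) and without tamoxifen 2 (-1.05, adjusted p = 0.0695). Magi3 (-1.71), Amot (-1.26) and Amotl2 (-1.40) were also called lower, and Amotl1 was at 13307 and 12848 against 8267 and 7267 without a call (-0.75). The 2 called higher were relatives of both scaffold members. Tjp3, or ZO-3, a scaffold of epithelial junctions, was at 20.5 and 47.6 against 312 and 242 (3.09), and Cgn, or cingulin, at 34.2 and 83.9 against 541 and 449 (3.17), and both calls were lost when either tamoxifen library was left out.

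Among the remaining roles, relatives of the members moved both ways. Ildr2, or angulin 3, was at 7224 and 6066 in the control libraries and at 2280 and 2326 in the tamoxifen libraries (log2 change -1.52, adjusted p = 0.000156). Ildr1, or angulin 2, was at 24.7 and 57.6 against 414 and 247 (3.05, adjusted p = 0.00158), a call lost when either tamoxifen library was left out. Of the 3 angulins, Lsr and Ildr2 were therefore lower and Ildr1 was higher. Marveld3 was at 1.37 and 5.01 against 10.8 and 12.9 and was below the filter. Of 4 further adhesion genes, Igsf5 was lower (1293 and 1227 against 262 and 135, log2 change -2.73, adjusted p = 0.000265). Clmp (3.02) and Cxadr (2.08), both adhesion molecules of the coxsackievirus receptor family, were higher, although the call of Clmp was lost without tamoxifen 1 (3.43, adjusted p = 0.0525) or tamoxifen 2 (2.61, adjusted p = 0.08). Jam3, which encodes JAM-C, was at 189 and 268 against 388 and 520 and was just under the size limit (0.99, adjusted p = 0.0216). It was called higher with equal totals (1.46), with DESeq2 (1.01) and without control 2 (1.25). Of 9 polarity and signaling genes 1 was called lower and 3 higher. These shares, 11.1% and 33.3%, are near the 16% and 28.6% of all genes tested. Arhgef2, a guanine nucleotide exchange factor held at junctions by cingulin, was at 24615 and 24869 against 9286 and 7441 (-1.57, adjusted p = 0.000314), a call lost after quantile normalization (-0.94). The 3 called higher were Pard6b (12.3 and 16.3 against 674 and 541, log2 change 5.32), Prkcz (79.4 and 82.6 against 510 and 553) and Prkci (1.27). They are genes of the PAR complex, as are Pard6a (0.13) and Pard6g (0.16), which were not called. Pard3 of the same complex was at 5634 and 5939 against 3656 and 3212 without a call (-0.76), and Ybx3 was at 9535 and 10438 against 11114 and 8495 (-0.04). Cldn9, Magi3, Amot, Amotl2, Cxadr and Prkci are named because they complete small counts and were chosen after their values were seen. Pard6a and Pard6g, relatives of Pard6b, were also chosen after their values were seen.

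**Figure D4:**
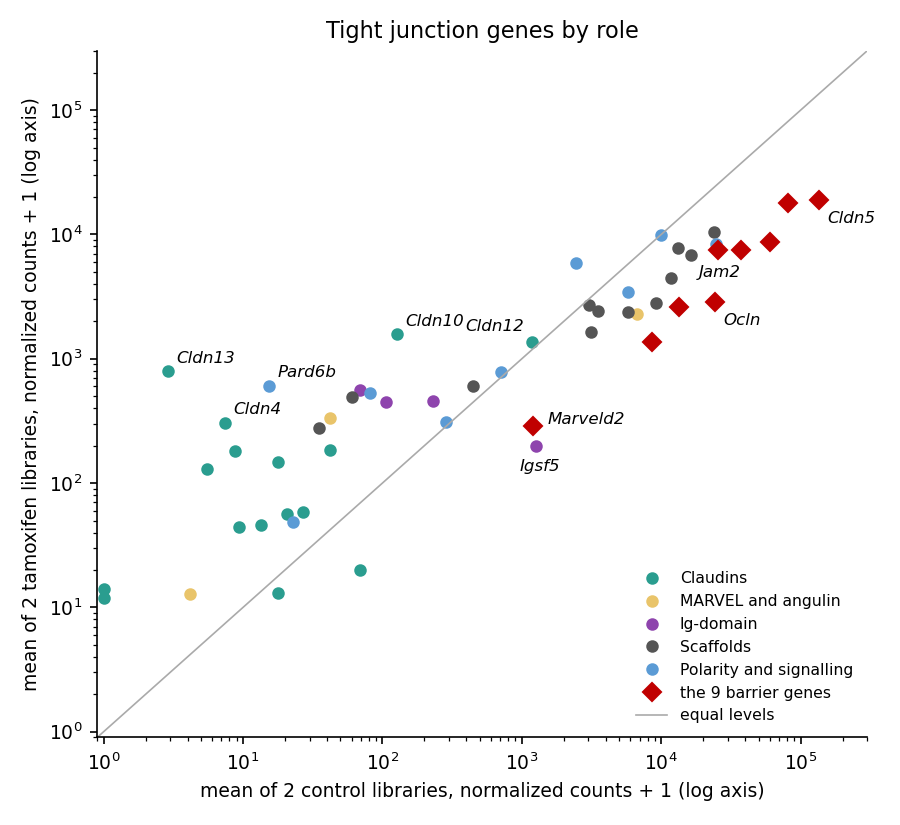
Mean normalized counts + 1 of 2 tamoxifen libraries against those of 2 control libraries (both log axes) for the 9 barrier genes (red diamonds) and the 44 other tight junction genes in the table, colored by role, with equal levels on the gray line. All 9 diamonds lie below the line, whereas most other claudins, such as Cldn4 (306 against 6.38), lie above it at low control levels.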

How the data were processed

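RNA-Seq of mouse brain endothelial fractions was analyzed in 2 control and 2 tamoxifen libraries. RNA libraries came from a stranded mRNA kit. Alignment to GRCm39 with STAR 2.7.10a and normalization of gene counts with DESeq2 1.36.0 were done by the authors, as the submitters' processing notes and the study's methods give it. The annotation release, the strand setting of the counting and the low-count limit are not given in the sources used here. Each deposited value is a signal, namely the read count of a gene over a factor that is shared within a library. Whole reads were recovered by dividing each column by its smallest step, and 100% of values came out whole within 0.01. Columns C1 and C2 were read as the control libraries by letter and number. Columns A1 and A2 were read as the tamoxifen libraries, although no label holds the letter A, which was taken for arteriovenous malformation. The table held 0 other columns of sample values.

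Differential expression was fitted in R 4.3.3 with limma 3.58.1, using eBayes with a trend, on log2(normalized count + 1). The 20485 genes whose mean reached 10 were kept, with BH adjustment over all of them. A log2 change on this scale understates that of low genes. A gene was called when its adjusted p was under 0.05 and its log2 change exceeded 1 in size, the cut-offs of the study. An exact permutation test of 2 against 2 libraries cannot give a p below 0.333 and was not used. A second fit subtracted each library's mean log2 level of the 20 endothelial markers. On recovered reads, edgeR 4.0.16 called 3377 genes lower and 5864 higher, and DESeq2 1.42.0 called 3045 and 5694. Other settings were a pseudocount of 0.5 or 5, a filter at 100 or none, equal totals, quantile normalization, no trend, a replicate block, each library left out, adjusted p alone and other endothelial references. The fits were tested on simulated data.

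The members, the gene lists and the marker lists (endothelial, epithelial, pluripotency, choroid plexus and ependymal, pituitary, oligodendrocyte, astrocyte, pericyte and smooth muscle, neutrophil, microglia and macrophage, erythroid) were chosen with earlier results of these data known. All 9 members were named, and of the other tight junction genes the 3 with the highest mean and the 2 called genes with the largest change in each role, except 1 gene that is not reported here. A value at or under 3 reads was treated as the floor, which covers counting error only. Exon lengths, positions and overlaps came from GENCODE M39 and promoter windows from RefSeq, placed on GRCm39 by exact match.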

Additional observations from a re-analysis of the deposited data

How the results depend on the processing

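The 9 members were called lower under every setting tried, and their median log2 change ran from -2.76 without tamoxifen 1 to -1.94 after rescaling to equal totals. The cause of the shifts that follow was not tested. Over all genes, 3284 were called lower, against 1838 with equal totals, 5509 with quantile normalization and 5228 by adjusted p alone, and 1594 (without tamoxifen 2) to 3537 (without control 2) when a library was left out. The 5867 called higher became 3540 with a filter at 100, which leaves fewer genes, and 2553 (without tamoxifen 2) to 6163 (without control 2) when a library was left out. Without tamoxifen 1 the counts were 1994 lower and 3030 higher. Of the calls, 64.1% were higher as reported, 79.7% with equal totals and 45.6% with quantile normalization. The 9 other tight junction genes called lower became 4 with equal totals, 5 with quantile normalization and 6 to 9 when a library was left out, and the 18 called higher became 5 to 18. Jam2, the 1 member called higher relative to the endothelial list, became 0 with quantile normalization, no trend and the replicate block, and 0 to 1 when a library was left out.

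Directions turned for small differences. Jam3 was at -0.00 with quantile normalization. Ybx3 was at 0.43 with equal totals, 0.52 with quantile normalization, and between -0.23 (without tamoxifen 1) and 0.16 (without tamoxifen 2) when a library was left out, with 0.03 without control 2. Relative to the endothelial list, quantile normalization gave 0.27 for Cldn5, 0.13 for Esam, -0.60 for Marveld2 and -0.41 for Lsr. Leaving out a library moved Cldn5 from -0.31 (tamoxifen 1) to 0.02 (tamoxifen 2) and Lsr from -0.00 (tamoxifen 1) to 0.17 (tamoxifen 2), and Esam was at 0.07 with the list's median as reference.

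Libraries of the same number did not deviate together (r = 0.0251 over 20485 genes). With 2 pools a group this cannot exclude shared handling, and the labels give such libraries only a common number. With the replicate block 9 members, 3461 genes in all and 9 other tight junction genes were called lower, and 6064 genes in all and 17 other tight junction genes higher. With 2 pools a group, leaving out 1 leaves a lone library that is assumed to vary like the other group.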

Other observations

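Pituitary genes were lower in the tamoxifen group, as were the endothelial markers. Of 8 tested, 7 were called lower, with sums of 13169 and 37174 in the control libraries against 177 and 191 in the tamoxifen libraries. Pomc, the precursor of corticotropin, was at 8105 and 25839 against 107 and 70.5, and Gh, growth hormone, at 2560 and 7483 against 0 and 0.719. The exception, Lhb, was at 0 and 3.75 against 44.4 and 86.3. This gene was named after its values were seen.

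Glial and mural markers showed other patterns. All 6 astrocyte markers were called higher, with a median log2 change of 3.24 and sums of 27117 and 31486 against 134790 and 285980. Of 6 oligodendrocyte markers 5 were called higher (sums of 1103 and 1386 against 5345 and 5878), and of 6 markers of microglia and macrophages 3 (1326 and 2519 against 4504 and 4122). The latter 3 were Tmem119, C1qa and Ptprc, the gene of CD45 that is given above. Csf1r, Cx3cr1 and P2ry12 were not called. Of 7 pericyte and smooth muscle markers 1 was called higher, and the sums were 24237 and 42046 in the control libraries against 28374 and 58807 in the tamoxifen libraries, so that the groups overlapped.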
